A study of Homo sapiens with 8 samples.

Results

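Crosslink counts of DUS2L and DUS1L were compared in 5-chlorouridine-treated cells. The comparison used 4 of the 8 libraries of the series, namely 2 from cells with tagged DUS2L and 2 from cells with tagged DUS1L, chosen by their titles. All came from a human embryonic kidney line, Flp-In T-REx 293, which carried a tetracycline-inducible 3xFLAG-DUS1L or 3xFLAG-DUS2L gene. Tetracycline at 1 µg/mL was given to all cells for 12 h and again for the next 12 h, when the treated cells also received 100 µM 5-chlorouridine (5-ClUrd). The other 4 libraries, 2 for each enzyme, had tetracycline without 5-ClUrd and are given here as a background. The tagged enzyme was produced from an inducible copy in both lines, and whether the untagged enzymes of the cells were still present is not given in the sources used here. In the series, replicates are called biological.

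DUS1L and DUS2L are dihydrouridine synthases, enzymes that use a flavin cofactor to reduce uridine in tRNA to dihydrouridine. The name of the D loop, one of the hairpin loops of tRNA, comes from this base. Their yeast counterparts act at positions 16 and 17 (Dus1) and at position 20 (Dus2) of that loop in the standard tRNA numbering. Cells build 5-ClUrd into RNA, where the halogenated base can stay covalently bound to a cysteine of the enzyme that tries to reduce it. iCLIP then recovers the RNA fixed to the tagged protein and reads the site from where reverse transcription stopped. The comparison asks which tRNAs, and which positions in them, hold more of the crosslinks of one enzyme than of the other.

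The 4 treated libraries held between 363024 and 824657 sense-strand crosslink counts, the DUS1L libraries more than the DUS2L libraries. A count of 3 corresponds to a share of at most 0.000826% in any of the 4. The untreated libraries were thinner, with 144322 and 7369 sense counts for DUS1L and 130011 and 172078 for DUS2L. Shares in untreated DUS1L replicate 2 therefore rest on few counts. All counts lay on cytosolic tRNA and ribosomal RNA (rRNA) references, so that a share is a share of these RNAs and says nothing of their abundance in the cell. The mRNAs of the enzymes and of kidney cell markers are not among the references, so the tagged gene and the cell type could not be checked from the counts. The highest count of a single site was 1269 and 1061 in the DUS1L libraries and 1428 and 1436 in the DUS2L libraries. Sites above 500 counts held between 40.5% and 52.5% of each treated library. Whether counts per site have an upper limit was not tested, and the highest single site is therefore given beside positions that it touches. The deposited DUS2L files are named as premapped to non-coding RNA and those of DUS1L are not, and this difference cannot be told apart from the enzyme.

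Counts were summed to 50 tRNA families, one for each amino acid and anticodon except tRNA-Asn, whose name holds no anticodon, and to 5 rRNA families. Treated DUS2L libraries held far larger shares on the tRNAs for proline, glutamate, glycine, aspartate, histidine and selenocysteine and on 4 of 5 leucine families, while treated DUS1L libraries held larger shares on the tRNAs for arginine, alanine, phenylalanine and tyrosine. With edgeR (quasi-likelihood F test, p adjusted by Benjamini-Hochberg, threshold 0.05), 21 of 55 families were higher in DUS2L (38.2%) and 15 were lower (27.3%). In each of these 36 families both DUS2L libraries lay on the same side of both DUS1L libraries. Groups without overlap were found for 49 of the 55. The median log2 difference over all 55 families was 0.49, which TMM scaling moved to 0.06, and no family that passed the threshold changed sign under TMM or under DESeq2 size factors. Those factors passed 17 and 21 families as higher and 12 and 13 as lower.

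**Figure D1:**
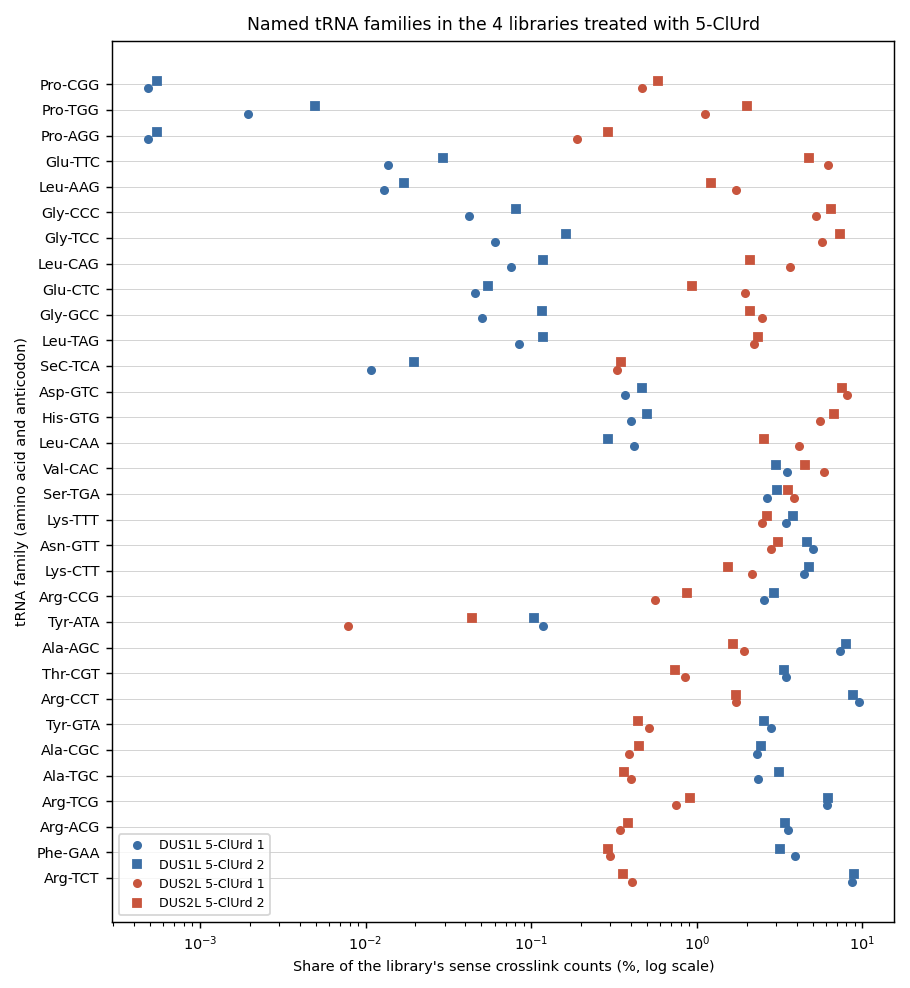
Share of each library's sense crosslink counts (percent, log scale) on the named tRNA families, ordered by the log2 difference between treated DUS2L (red) and treated DUS1L (blue). Circles are replicate 1 and squares are replicate 2. Proline families sit near 0.0005% to 0.005% in DUS1L and above 0.18% in DUS2L, and tRNA-Arg-TCT sits near 8.7% in DUS1L and under 0.41% in DUS2L.

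The 5 families with the highest DUS2L shares, those of Asp-GTC, Gly-TCC, His-GTG, Gly-CCC and Glu-TTC, each held under 0.5% of counts in both DUS1L libraries. The aspartate tRNA family, tRNA-Asp-GTC, held 0.369% and 0.469% of counts in the DUS1L libraries and 8.08% and 7.55% in the DUS2L libraries. The 2 DUS2L libraries were close to each other and far above both DUS1L libraries, with a log2 difference of 4.22 ± 0.25 (SE, adjusted p = 5.58e-06). The family was also high without 5-ClUrd in DUS2L cells, at 10.6% and 9.68%, against 0.0637% and 0.0407% (92 and 3 counts) in DUS1L cells.

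The 3 glycine families together went from 0.256% ± 0.146 in DUS1L to 14.6% ± 1.75 in DUS2L (SD, n = 2 each). tRNA-Gly-TCC held 0.0608% and 0.162% against 5.66% and 7.32% (log2 5.86 ± 0.61, adjusted p = 8.43e-05). tRNA-Gly-CCC held 0.0421% and 0.0809% against 5.22% and 6.43% (log2 6.57 ± 0.51, adjusted p = 1.9e-05). Both were low in both DUS1L libraries and among the leading families in both DUS2L libraries. The third, tRNA-Gly-GCC, had 418 and 631 counts against 9227 and 7644. Counting each site once in place of its counts ended the call for tRNA-Gly-TCC (log2 0.36, adjusted p = 0.153).

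tRNA-His-GTG, the only histidine family, had 0.402% and 0.498% of counts in DUS1L and 5.53% and 6.75% in DUS2L. This 13.6-fold difference of means (log2 3.77 ± 0.52, adjusted p = 0.000402) became -0.0067 on the log2 scale when each site was counted once. The glutamate families stood further apart. tRNA-Glu-CTC had 377 and 299 counts in DUS1L and 7251 and 3373 in DUS2L (log2 4.84 ± 0.49, adjusted p = 6.89e-05), and the 2 DUS2L libraries differed between themselves in share by more than those of most families, at 1.96% and 0.929%.

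Proline families were nearly empty in DUS1L. tRNA-Pro-CGG had 4 and 3 counts there and 1729 and 2125 in DUS2L, tRNA-Pro-AGG had 4 and 3 against 698 and 1058, and tRNA-Pro-TGG had 16 and 27 against 4128 and 7257, although the DUS1L libraries were the deeper ones. Untreated DUS2L cells showed the same families at 0.447% to 1.69% of counts, and untreated DUS1L cells at no more than 0.0136%, which is 1 count in the thin replicate 2.

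Leucine, serine and selenocysteine tRNAs have a long variable arm and are called type II, while all others are type I. The 10 type II families together held 8.63% and 9.51% of counts in DUS1L and 26.2% and 21.5% in DUS2L. Of the 10, 6 were higher in DUS2L and none was lower, with a median log2 difference of 2.63, against 12 higher and 15 lower of the 40 type I families and a median of -0.55. The leucine families carried most of this. Their summed share was 2.64% ± 0.0310 in DUS1L and 13.2% ± 2.17 in DUS2L (SD, n = 2 each). tRNA-Leu-CAG had 621 and 636 counts against 13605 and 7592 (log2 4.90 ± 0.62, adjusted p = 0.000235), and tRNA-Leu-TAG had 695 and 643 against 8195 and 8482 (log2 4.49 ± 0.39, adjusted p = 2.92e-05). The DUS2L libraries exceeded the DUS1L libraries by more than 10-fold in counts for both families.

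tRNA-Leu-CAA held 0.415% and 0.293% against 4.14% and 2.54% (log2 3.24 ± 0.76, adjusted p = 0.00639). Its call was lost with TMM scaling (adjusted p = 0.0668), without DUS1L replicate 1 (adjusted p = 0.0594) and without DUS1L replicate 2 (adjusted p = 0.0891). The fifth leucine family, tRNA-Leu-TAA, had 2.08% in each DUS1L library and 2.98% and 3.48% in DUS2L, and did not pass the test (log2 0.64 ± 0.49, adjusted p = 0.281). tRNA-SeC-TCA, which inserts selenocysteine at a recoded stop codon, had 89 and 106 counts against 1224 and 1264 (log2 4.48 ± 0.45, adjusted p = 6.89e-05). Among serine families only tRNA-Ser-AGA passed, with 0.412% and 0.457% against 1.96% and 1.55% (log2 2.01 ± 0.69, adjusted p = 0.0333). tRNA-Ser-TGA, among the 8 families of highest share in DUS2L but not in DUS1L, had 2.66% and 3.04% against 3.88% and 3.56% (log2 0.38 ± 0.58, adjusted p = 0.567), a difference whose sign turned with TMM scaling (log2 -0.04).

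The families lower in DUS2L were led by arginine, the amino acid with most counts in DUS1L. The 5 arginine families together held 30.3% ± 0.161 of DUS1L counts and 4.003% ± 0.329 of DUS2L counts (SD, n = 2 each), and all 5 passed the test as lower. tRNA-Arg-CCT held 9.52% and 8.75% in DUS1L and 1.72% and 1.71% in DUS2L (log2 -2.41 ± 0.14, adjusted p = 5.58e-06), a call that was lost when each site was counted once (adjusted p = 0.102). tRNA-Arg-TCG held 6.12% and 6.22% against 0.746% and 0.911% (log2 -2.90 ± 0.13, adjusted p = 1.18e-06). For both families the 2 libraries of an enzyme were much closer to each other than to those of the other enzyme.

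All 3 alanine families were lower in DUS2L, with 12.8% ± 1.14 of counts in DUS1L and 2.59% ± 0.176 in DUS2L (SD, n = 2 each). tRNA-Ala-AGC, the largest of them, held 7.32% and 8.01% against 1.92% and 1.65% (log2 -2.10 ± 0.31, adjusted p = 0.000601). With each site counted once it no longer passed (adjusted p = 0.0640). tRNA-Tyr-GTA held 2.81% and 2.53% against 0.517% and 0.442% (log2 -2.48 ± 0.39, adjusted p = 0.000915). The small tRNA-Tyr-ATA family, with 967 and 563 counts against 29 and 160, was called at an adjusted p of 0.0456 that rose above the threshold with TMM scaling (0.0527), without sites above 500 counts (0.0510) and without any of 4 libraries (0.0661 to 0.157). These were DUS1L 5-ClUrd replicates 1 and 2 and DUS2L untreated replicates 1 and 2.

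Threonine and isoleucine families were lower in 2 of 3 members each. tRNA-Thr-CGT held 3.43% and 3.37% against 0.843% and 0.741% (log2 -2.10 ± 0.45, adjusted p = 0.00423). No call was made for lysine, valine, cysteine, tryptophan, elongator methionine or initiator methionine families. tRNA-Val-CAC held 3.50% and 3.00% in DUS1L and 5.84% and 4.51% in DUS2L (log2 0.67 ± 0.28, adjusted p = 0.0685). tRNA-Lys-CTT held 4.45% and 4.78% against 2.15% and 1.53% (log2 -1.33 ± 0.61, adjusted p = 0.0906). tRNA-Asn-GTT held 5.00% and 4.66% against 2.81% and 3.08% (log2 -0.71 ± 0.27, adjusted p = 0.0504). In these 3 families the libraries of the enzymes did not overlap, but the differences did not pass the threshold. The small tRNA-Asn family passed as higher in DUS2L, with 95 and 28 counts against 57 and 304 (log2 2.55 ± 0.87, adjusted p = 0.0333).

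**Figure D2:**
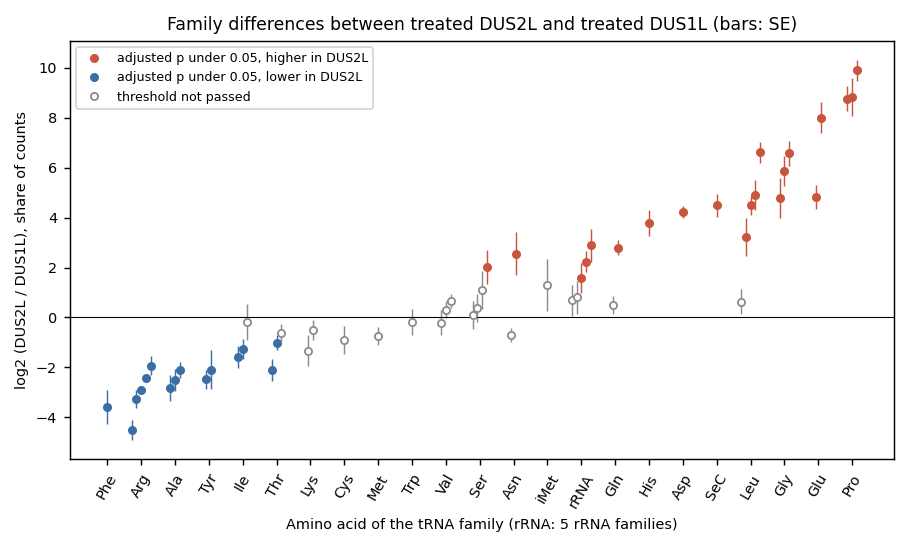
Log2 difference in the share of counts between treated DUS2L and treated DUS1L for each of the 55 families (points, with the SE as bars), grouped by amino acid, with the 5 rRNA families in one group. Filled points passed an adjusted p of 0.05; proline, glutamate and glycine families lie between 4.78 and 9.89, and arginine families between -4.52 and -1.94.

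Families were then split into their references, each a distinct mature tRNA sequence that 1 or more genes encode. Near-identical references may share reads, so that a single reference is less certain than its family. Of 241 references tested, 72 were higher in DUS2L (29.9%) and 84 were lower (34.9%), and the groups did not overlap in any of these 156. Groups without overlap were found for 208 of the 241. The references of an amino acid mostly went one way. All 7 proline, all 7 glutamate, 11 of 12 glycine and 15 of 19 leucine references were higher and none of them lower, and 18 of 20 arginine, 14 of 23 alanine, 7 of 8 tyrosine and all 4 phenylalanine references were lower and none of them higher. Of the 45 families with several references tested, 18 had all of them called one way.

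The references higher in DUS2L by the largest factors came from proline, leucine and glutamate tRNAs. tRNA-Pro-CGG-1-1 (3 genes, among them TRP-CGG1-1 on chromosome 1, 167714725 to 167714796) had 0 and 2 counts in DUS1L and 1446 and 1771 in DUS2L. The ratio of the shares was 2996, with a 95% counting interval from 829 to 24753. tRNA-Leu-AAG-1-1 had 0 and 2 counts against 1042 and 369, a ratio of 1314 (363 to 10863), and tRNA-Pro-AGG-1-1 (TRP-AGG1-1 on chromosome 16, 3191989 to 3192060) had 0 and 1 against 276 and 484, a ratio of 1416 (253 to 55994). The lower ends of these intervals, which cover counting error only, are the firmer statement for such small counts.

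Other references had more DUS1L counts behind them. tRNA-Pro-TGG-2-1 (TRP-TGG2-1 on chromosome 11, 76235825 to 76235896) had 7 and 11 counts against 2927 and 5007 (log2 9.57 ± 0.74), tRNA-Leu-AAG-4-1 had 9 and 6 against 2175 and 2878 (log2 9.24 ± 0.72), and tRNA-Glu-TTC-1-1 (2 genes, among them TRE-TTC1-1 on chromosome 2, 130337128 to 130337199) had 26 and 38 against 10392 and 8205 (log2 8.97 ± 0.65). The edgeR adjusted p was 7.75e-09 for each of the 3. The reference with the largest DUS2L share was tRNA-His-GTG-1-1, the only histidine reference tested, followed by tRNA-Asp-GTC-2-1 with 6.08% and 5.51% and tRNA-Gly-CCC-2-1 with 4.61% and 5.86%.

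Among references lower in DUS2L, tRNA-Phe-GAA-3-1 (TRF-GAA3-1 on chromosome 6, 28807833 to 28807905) had 266 and 56 counts in DUS1L and 0 and 0 in DUS2L, and was at least 26.04-fold lower against a floor of 3 counts in each library. tRNA-Phe-GAA-4-1 (TRF-GAA4-1 on chromosome 6, 28823316 to 28823389) had 307 and 158 counts against 0 and 1, a ratio of 250 with a counting interval from 44.6 to 9880. The main phenylalanine reference, tRNA-Phe-GAA-1-1, kept 0.297% and 0.288% in DUS2L against 3.83% and 3.16% in DUS1L. Thus the minor phenylalanine references were at or near 0 in DUS2L while the main one was not.

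A few references stood apart from the rest of their family. tRNA-Cys-GCA-2-1 (4 genes, among them TRC-GCA2-2 on chromosome 17, 38867645 to 38867716) had 2197 and 2128 counts in DUS1L and 11 and 11 in DUS2L (log2 -6.76 ± 0.83, adjusted p = 1.23e-06). Its family as a whole did not pass (log2 -0.90 ± 0.56, adjusted p = 0.195), with 2 of its 17 references higher and 5 lower. tRNA-Met-CAT-2-1 (TRM-CAT2-1 on chromosome 16, 71426493 to 71426565) had 2500 and 1490 counts against 5 and 25 (log2 -6.12 ± 0.92, adjusted p = 1.26e-05), in a family with 1 of 7 references higher and 4 lower. Calls in both directions were made within 9 families, those of Asn-GTT, Cys-GCA, Gln-CTG, Ile-AAT, Lys-TTT, Met-CAT, Ser-GCT, Thr-TGT and Val-AAC. How reads were shared between near-identical references was not tested.

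The references with the largest DUS1L shares were all arginine and phenylalanine tRNAs. tRNA-Arg-TCT-1-1 (TRR-TCT1-1 on chromosome 1, 93847573 to 93847657) held 4.07% and 4.17% in DUS1L and 0.186% and 0.180% in DUS2L. tRNA-Arg-CCT-1-1 (TRR-CCT1-1 on chromosome 17, 75033906 to 75033978) held 3.69% and 3.08% against 0.760% and 0.810%, and tRNA-Arg-TCG-1-1 (TRR-TCG1-1 on chromosome 15, 89335073 to 89335145) held 2.78% and 3.05% against 0.484% and 0.492%. The groups did not overlap for any of the 3.

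Within a family, the share at each position shows where along the tRNA the crosslinks lay. Position numbers start at 1 with the first base of the reference, so that they can differ by a few from the standard tRNA numbering where loops vary in length. Of 2855 positions tested in 42 tRNA and 3 rRNA families, 348 held a larger share of their family in DUS2L (12.2%) and 638 a smaller one (22.3%). Without DUS1L replicate 1 the calls in both directions fell from 986 to 290, without DUS1L replicate 2 to 379 and without DUS2L replicate 2 to 650. The position results are led by the 7 tRNA families whose mean counts differed by less than 2-fold between the enzymes: Gln-CTG, Leu-TAA, Ser-CGA, Ser-GCT, Ser-TGA, Val-AAC and Val-CAC. Their numbers of sites above 500 counts were not equal, as in tRNA-Ser-GCT, with 7 and 6 in DUS1L and 3 and 3 in DUS2L.

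In these 7 families DUS2L held larger shares at the 5′ end. Positions 2 to 9 had 47 tests, of which 21 were higher in DUS2L and none was lower, with a median log2 difference of 1.38. Positions 28 to 60 had 214 tests, none higher and 33 lower, with a median of -1.27. They run from the anticodon stem to the T loop in type I tRNAs only. In the leucine and serine families, which are type II, positions from 44 on do not mark the same loops. The D-loop window, positions 14 to 21, lay between these stretches, with 14 of 56 tests higher and 6 lower. Together with the 2 rRNA families of like counts, these families had 661 tests. Of these, 97 were higher (14.7%) and 118 lower (17.9%), with a median of -0.70. Lower calls at positions 28 to 60 were thus not above that share, while higher calls were absent there. Fitted in these tRNA and rRNA families alone, 180 of 661 positions passed.

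Position 2 gave the widest difference. At position 2 of tRNA-Leu-TAA the DUS1L libraries held 4.86% and 2.23% of the family and the DUS2L libraries 17.6% and 22.4% (log2 2.50 ± 0.35, adjusted p = 2.72e-10). At position 2 of tRNA-Ser-CGA the shares were 1.04% and 0.576% against 8.43% and 12.3% (log2 3.67 ± 0.45, adjusted p = 2.23e-13). For tRNA-Val-CAC they were 3.24% and 4.12% against 9.87% and 12.2% (log2 1.59 ± 0.35, adjusted p = 8.16e-05). The groups were apart in each, and position 2 was called higher in 5 of the 7 families and lower in none. tRNA-Ser-TGA (log2 3.04 ± 0.45) and tRNA-Ser-GCT (log2 3.54 ± 0.62) were the other 2, while tRNA-Gln-CTG and tRNA-Val-AAC did not pass.

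Positions 13 and 15 went the other way, while the 5′ side of the D stem as a whole (positions 10 to 13) had 7 of 25 tests higher and 6 lower. Position 13, at the end of the 5′ side of the D stem, was lower in DUS2L in 5 of the 7 families and higher in 1. In tRNA-Gln-CTG it held 9.28% and 10.5% in DUS1L and 1.19% and 2.41% in DUS2L (log2 -2.46 ± 0.49, adjusted p = 1.37e-05), and in tRNA-Val-AAC 9.29% and 12.96% against 3.64% and 4.34% (log2 -1.48 ± 0.44, adjusted p = 0.00512). Position 15 was lower in 4 of 7, with 12.6% and 14.4% against 5.25% and 6.27% in tRNA-Gln-CTG (log2 -1.23 ± 0.40, adjusted p = 0.0102). Both libraries of DUS1L exceeded both of DUS2L in these examples.

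At positions 17 to 19, the D loop held larger DUS2L shares in several of the 7 families. Position 17 was higher in 4 of 7, position 18 in 5 of 7 and position 19 in 3 of 7, with none lower. At position 18 of tRNA-Val-AAC the shares were 4.46% and 2.40% for DUS1L against 14.2% and 11.9% for DUS2L (log2 1.92 ± 0.42, adjusted p = 9.08e-05). At position 18 of tRNA-Gln-CTG they were 2.51% and 1.36% against 6.30% and 6.69% (log2 1.74 ± 0.49, adjusted p = 0.00259). Of the positions at which the yeast enzymes act, 16 was higher in 1 of 7 families, with 5.79% and 5.58% against 16.1% and 12.9% in tRNA-Val-AAC (log2 1.35 ± 0.40, adjusted p = 0.00446). Position 20 was lower in 1 of 7 and higher in none. The crosslink was not resolved further, since how a read was assigned to its site is not given in the sources used here.

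**Figure D3:**
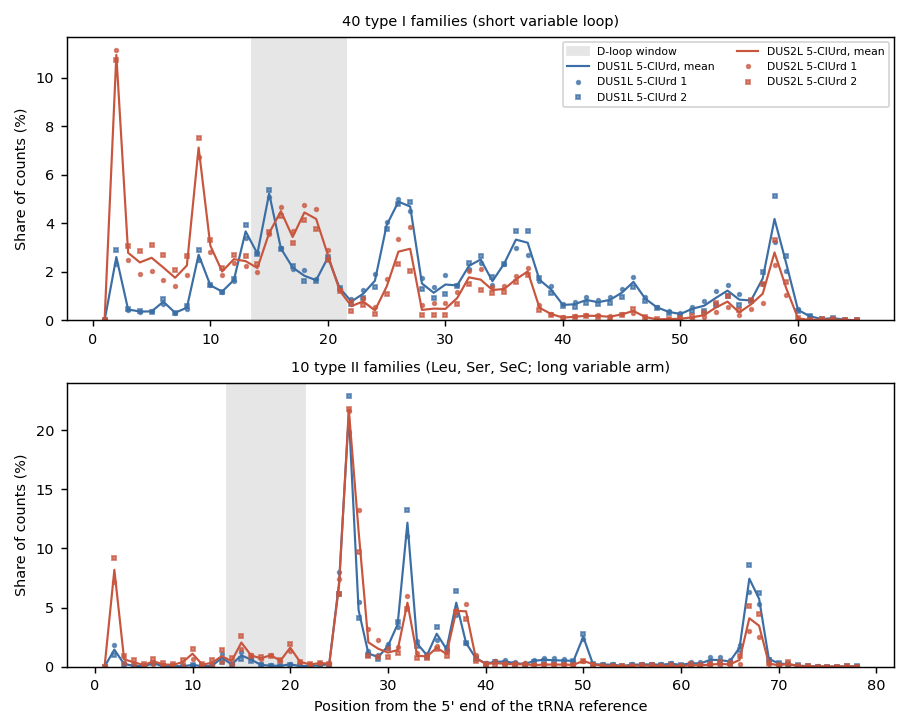
Share of counts (percent) at each position from the 5′ end, over 40 type I families (top) and 10 type II families (bottom). Lines are the means of 2 treated libraries of DUS1L (blue) and DUS2L (red), points are the single libraries, and the grey band is the D-loop window. In type I families DUS2L has its highest points at position 2 (11.1% and 10.7%) and position 9, and type II families of both enzymes peak at position 26.

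Over all type I tRNA counts, pooled from families whose shares differ between the enzymes, position 2 held 2.34% and 2.89% of them in DUS1L and 11.1% and 10.7% in DUS2L, and position 9, between the acceptor and D stems, held 2.51% and 2.90% against 6.73% and 7.51%. Position 15 was lower in DUS2L, at 5.07% and 5.39% against 3.55% and 3.65%. Positions 16 (2.99% and 2.95% against 4.69% and 4.31%), 17 (2.12% and 2.24% against 3.67% and 3.21%) and 18 (2.08% and 1.61% against 4.76% and 4.14%) were higher, while position 20 overlapped at 2.56% and 2.63% against 2.90% and 2.50%. Within type I families, 47 of 268 D-loop tests were higher in DUS2L (17.5%) and 74 lower (27.6%), with a median log2 difference of -0.48. Over all 1791 type I tests, 10.3% were higher and 27.1% lower, with a median of -1.06. The D loop thus had a larger share of higher calls than type I families as a whole, and a like share of lower ones. Position 16 was higher in 4 and lower in 10 of 34 (11.8% and 29.4%). These shares were near those over all type I tests and do not single out position 16.

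Summed to windows, the 5′ end (positions 1 to 9, with no site at position 1) held 7.07% and 8.07% of all tRNA counts in DUS1L and 23.6% and 29.8% in DUS2L, a difference of 19.1 percentage points. Its share in untreated libraries was 2.57% and 4.02% for DUS1L and 22.6% and 20.1% for DUS2L. The exact two-sided permutation test gave p = 0.333, the smallest that 2 against 2 libraries allow, here and for each window whose groups did not overlap. Of the 42 families, 28 had the 5′ end higher in both DUS2L libraries, 8 lower and 6 overlapping. In the other windows, the number of families higher ranged from 2 at the 3′ end to 15 in the anticodon loop. The number lower ranged from 12 at the hinge to 30 on the 5′ side of the T stem. With every family given the same weight the 5′ end difference was 9.13 points.

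The anticodon loop (positions 32 to 38) held 16.4% and 19.3% in DUS1L against 14.1% and 10.8% in DUS2L, the variable loop (44 to 48) 5.37% and 4.16% against 0.965% and 0.934%, and the T loop (54 to 60) 9.81% and 11.5% against 3.99% and 6.95%. In these pooled counts all 3 windows were lower in both DUS2L libraries. Positions from 44 on do not mark the same loops in type II tRNAs, which these sums and the equal weights that follow include. In type I tRNAs alone, the variable loop held 5.61% and 4.42% against 0.923% and 1.04%, and the T loop 10.6% and 12.6% against 5.37% and 8.80%. With every family given the same weight, the variable loop stayed lower (3.49% and 2.68% against 1.62% and 1.33%), the T loop overlapped (7.99% and 10.04% against 4.99% and 8.73%), and the anticodon loop overlapped with the opposite sign (13.7% and 17.1% against 19.003% and 16.5%). The anticodon loop was higher in both DUS2L libraries in 15 of 42 families and lower in 15. In type II tRNAs, whose long variable arm shifts the later positions, position 44 and above held 25.1% and 24.98% against 8.84% and 14.6%. There the hinge between the D and anticodon stems (positions 26 and 27) was higher in DUS2L in pooled counts, at 25.3% and 27.02% against 35.0% and 31.5%, with position 27 at 5.43% and 4.14% against 13.3% and 9.68%. Within tRNA-Leu-TAG, however, position 27 was lower in DUS2L (51.4% and 63.3% against 28.1% and 16.6%, log2 -1.36 ± 0.36, adjusted p = 0.00143), and tRNA-Leu-CAA, at 39.7% and 34.7% against 25.7% and 29.6%, did not pass (adjusted p = 0.266).

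**Figure D4:**
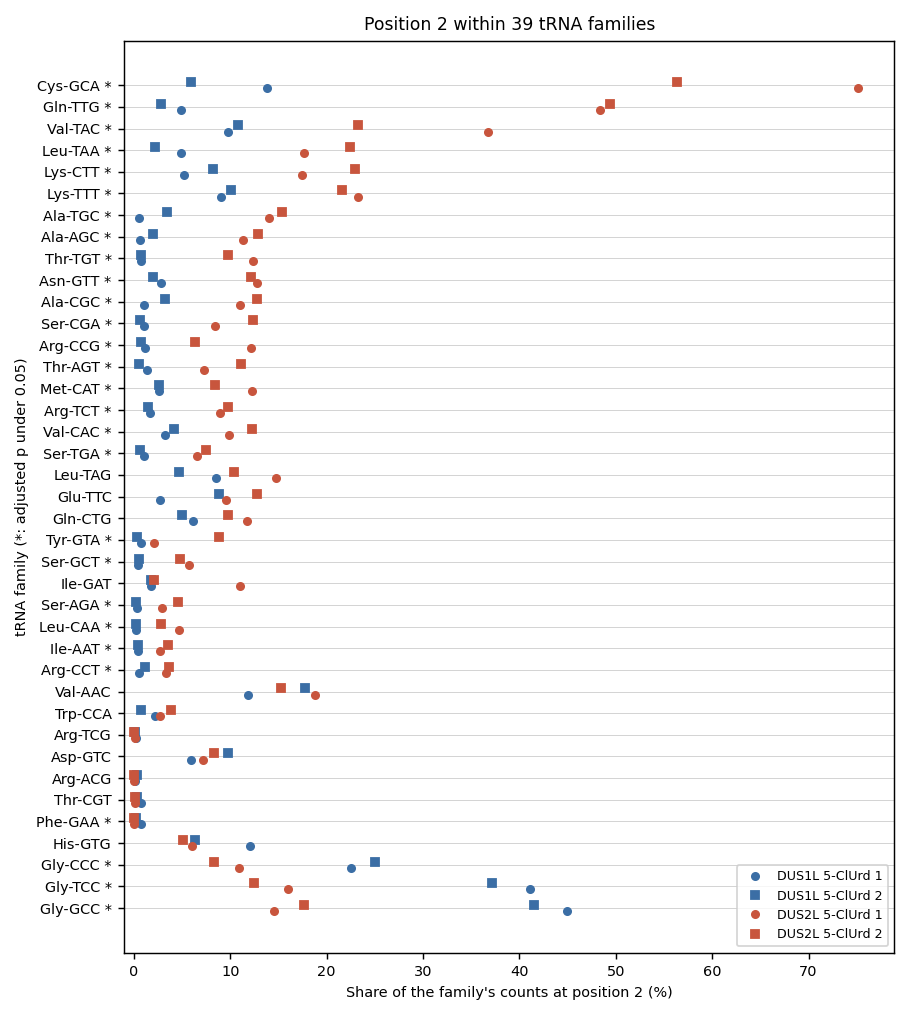
Share of a family's counts at position 2 (percent) in each treated library for the 39 tRNA families tested there, ordered by the difference of means, with DUS1L in blue and DUS2L in red. Asterisks mark an adjusted p under 0.05. The highest values are those of tRNA-Cys-GCA in DUS2L (75.2% and 56.4%), and the glycine families at the bottom hold more at position 2 in DUS1L.

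Over all tRNA families, position 2 was tested in 39, of which 24 were higher in DUS2L and 4 lower. In tRNA-Cys-GCA it held 13.8% and 5.92% of the family in DUS1L and 75.2% and 56.4% in DUS2L (log2 2.73 ± 0.43, adjusted p = 1.4e-08), while position 13, the highest in DUS1L at 18.5% and 23.3%, held 1.09% and 2.14% in DUS2L (log2 -3.68 ± 0.57, adjusted p = 9.5e-09). In tRNA-Gln-TTG, with 17 and 8 counts at position 2 in DUS1L against 613 and 581 in DUS2L, its share was 4.87% and 2.77% against 48.4% and 49.4% (log2 3.66 ± 0.58, adjusted p = 2.59e-08). tRNA-Val-TAC held 9.76% and 10.8% there against 36.7% and 23.3% (log2 1.55 ± 0.33, adjusted p = 6.61e-05). In these 3 families position 2 was the leading site of DUS2L in both libraries. Leaving out sites above 500 counts turned the sign for tRNA-Gln-TTG (log2 -0.71), where single sites held 606 of 613 and 578 of 581 DUS2L counts at this position.

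Of the 4 families with a smaller share at position 2 in DUS2L, 3 were the glycine families and the fourth was tRNA-Phe-GAA, which had no count there in DUS2L. tRNA-Gly-GCC held 44.98% and 41.5% there in DUS1L against 14.5% and 17.6% (log2 -1.43 ± 0.39, adjusted p = 0.0021), and tRNA-Gly-TCC held 41.1% and 37.2% against 15.95% and 12.5% (log2 -1.46 ± 0.32, adjusted p = 0.000105). Yet position 2 of tRNA-Gly-TCC had 206 and 327 counts in DUS1L and 3351 and 3312 in DUS2L, where the highest single site, at 1133 counts in replicate 1, was near the highest of the library. Without sites above 500 counts the log2 difference at this position was 2.02, and that of tRNA-Gly-GCC was 0.75. The part of such high sites in the smaller shares was not tested. As a share of the whole library, this position was higher in DUS2L (log2 4.42).

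High sites touched other positions in the same way. At position 37, in the anticodon loop of tRNA-Phe-GAA, the share was 3.96% and 6.17% for DUS1L against 51.0% and 52.8% for DUS2L (log2 3.36 ± 0.44, adjusted p = 7.24e-12). Its DUS1L sites, at 1269 and 1061 counts, were the highest of those libraries, and as a share of the library the position was about equal (0.155% and 0.198% against 0.152% and 0.153%). Position 32 of tRNA-Arg-CCT (6.48% and 9.20% against 41.7% and 40.5%) and position 37 of tRNA-Arg-ACG (7.97% and 11.3% against 46.7% and 52.8%) had DUS1L sites of 1247 and 1047 and of 1237 and 1060 counts. For these positions a larger share within the family in DUS2L stood beside no larger share of the library, and all 3 families were lower in DUS2L.

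Several lower shares in DUS2L, at the leading DUS1L sites of families that were higher in DUS2L, had the same feature. Position 9 of tRNA-Asp-GTC held 29.8% and 33.9% in DUS1L and 8.39% and 9.06% in DUS2L, with DUS2L sites of up to 1428 and 1377 counts, and the sign turned without sites above 500 counts (log2 6.69). Position 58 of tRNA-His-GTG, in the T loop, held 25.4% and 30.7% against 5.08% and 4.43%, with DUS2L sites of 1042 and 1086. Position 68 of tRNA-Leu-CAG held 60.9% and 59.7% against 6.96% and 13.6% (log2 -2.55 ± 0.42, adjusted p = 1.07e-07), with DUS2L sites of 947 and 1032. One position of this group was far below any such height. Position 20 of tRNA-Glu-CTC held 19.6% and 31.1% of 377 and 299 counts in DUS1L and 4.16% and 4.12% in DUS2L (log2 -2.61 ± 0.66, adjusted p = 0.000832), where no site exceeded 299 counts. Its call was lost without DUS1L replicate 2 (adjusted p = 0.102).

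The leading site of a family was often shared by the enzymes. In 18 of 42 tRNA families the highest position was the same in all 4 libraries, among them position 26 of the serine tRNAs. At position 26 of tRNA-Ser-AGA the shares were 63.7% and 65.3% for DUS1L against 52.3% and 64.8% for DUS2L (log2 -0.14 ± 0.29, adjusted p = 0.727), and at position 26 of tRNA-Ser-TGA they were 18.4% and 21.8% against 28.8% and 30.1% (log2 0.55 ± 0.28, adjusted p = 0.109). The highest position agreed between the 2 DUS1L libraries in 34 families and between the 2 DUS2L libraries in 32. It agreed within each enzyme and differed between them in 8.

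The D-loop window held 19.05% and 18.7% of all tRNA counts in DUS1L and 21.8% and 21.4% in DUS2L, a difference of 2.72 percentage points (exact permutation p = 0.333) that was 7.72 points without sites above 500 counts. In untreated libraries it was 10.8% and 14.5% for DUS1L and 21.3% and 20.5% for DUS2L. With every family given the same weight the treated groups overlapped, at 18.6% and 17.6% against 17.4% and 17.9%, and the difference was -0.42 points. Single families differed far more than this sum. The D-loop share was higher in both DUS2L libraries in 14 of 42 families, lower in 17 and overlapping in 11. Among the other windows, only the 5′ end (28) and the anticodon loop (15) were higher in more families. The families with a lower share ranged from 8 to 30 in those windows. The counts thus do not single out the D loop as lower in DUS2L.

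**Figure D5:**
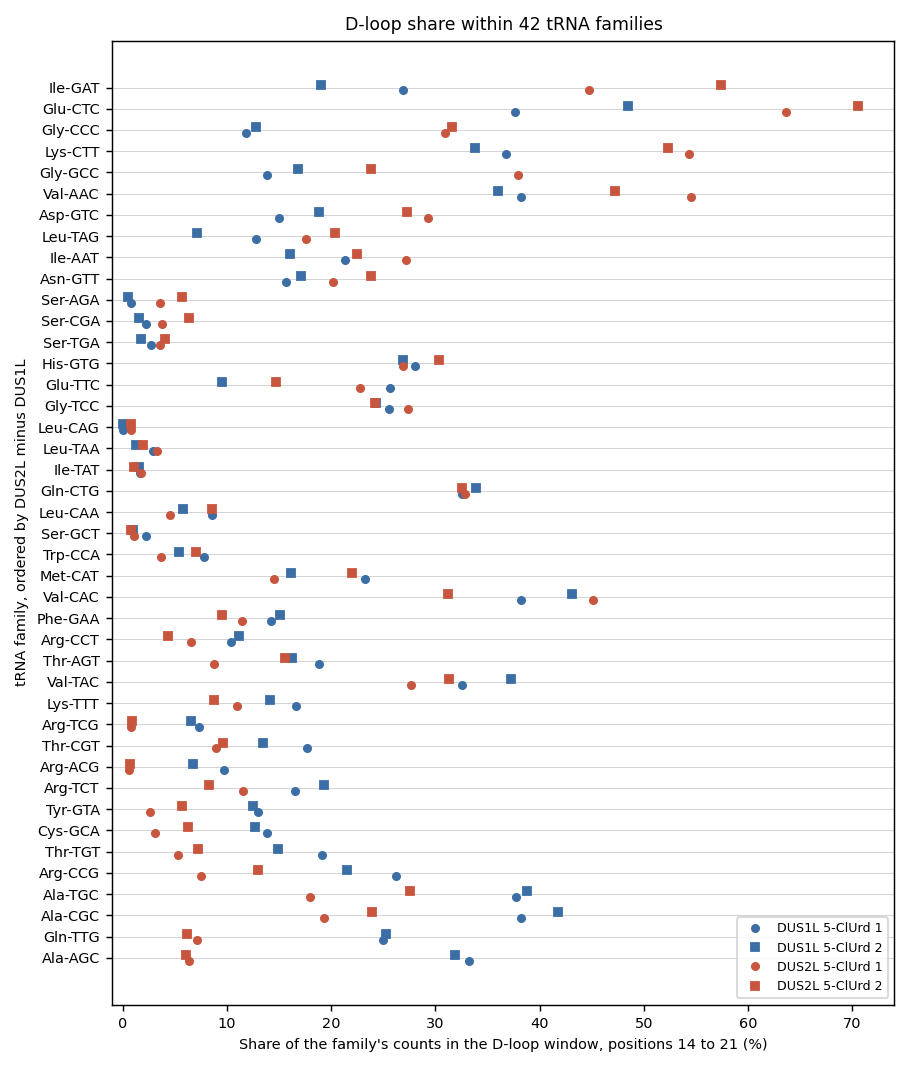
Share of a family's counts in the D-loop window, positions 14 to 21 (percent), in each treated library for 42 tRNA families, ordered by the difference of means. DUS2L (red) lies above DUS1L (blue) in the isoleucine GAT, glutamate CTC and glycine CCC families at the top and below it in the alanine families and glutamine TTG at the bottom.

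The D-loop share fell furthest below that of DUS1L in tRNA-Ala-AGC, followed by tRNA-Gln-TTG (24.9% and 25.3% against 7.10% and 6.13%) and the other alanine families. In tRNA-Ala-AGC the window held 33.2% and 31.9% in DUS1L and 6.39% and 6.03% in DUS2L. Position 17 of this family held 7.25% and 8.40% against 1.39% and 1.08% (log2 -2.66 ± 0.38, adjusted p = 2.99e-10), with the opposite sign once sites above 500 counts were left out (log2 3.91). Position 17 was likewise lower in tRNA-Ala-TGC (11.4% and 11.3% against 1.41% and 2.04%) and in tRNA-Ala-CGC (9.68% and 11.1% against 1.17% and 0.739%). In all 3 the DUS2L libraries were close to each other and well under DUS1L. In the anticodon loop, position 36 of tRNA-Ala-AGC held 8.22% and 10.3% against 24.5% and 24.2% (log2 1.39 ± 0.31, adjusted p = 0.000111). Its highest DUS1L sites had 1061 and 1021 counts, and as a share of the library the position was lower in DUS2L (0.601% and 0.828% against 0.471% and 0.400%).

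Larger D-loop shares in DUS2L were measured in 1 of 2 glutamate, 2 of 3 glycine and 1 of 2 lysine families. Those of tRNA-Glu-TTC and tRNA-Gly-TCC overlapped, and tRNA-Lys-TTT was lower in DUS2L (16.6% and 14.1% against 11.0% and 8.71%). tRNA-Glu-CTC held 37.7% and 48.5% in the window in DUS1L and 63.6% and 70.5% in DUS2L. Its positions 14 to 17 had 0 counts in both DUS1L libraries, where 3 counts would be 0.796% and 1.00% of the family. Position 17 held 9.75% and 10.2% in DUS2L, at least 11.1-fold higher than that floor, and position 16 was at least 8.23-fold higher. The DUS1L shares of this family rest on few counts.

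tRNA-Gly-CCC held 11.8% and 12.8% in the window against 30.9% and 31.5%, and tRNA-Lys-CTT 36.8% and 33.8% against 54.3% and 52.3%. In tRNA-Gly-GCC, position 18 held 0.478% and 1.109% of the family in DUS1L and 12.1% and 9.63% in DUS2L. In tRNA-Lys-CTT, position 19 held 4.26% and 3.35% against 13.6% and 13.1%. Across all tRNA families, position 18 was higher in DUS2L in 15 of 40 and lower in 2, position 17 higher in 16 of 41 and lower in 5, and position 13 higher in 2 of 41 and lower in 27. Positions 16 (6 higher, 10 lower) and 20 (7 higher, 9 lower) of 41 had calls in both directions.

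Ribosomal RNA took a larger share of counts in treated DUS2L, though it was small for both enzymes. tRNA held 98.9% and 99.2% of DUS1L counts and 97.4% and 95.6% of DUS2L counts, which is 99.0% ± 0.176 against 96.5% ± 1.26 (SD, n = 2 each; exact permutation p = 0.333). The difference of -2.53 points was -5.47 without sites above 500 counts and -11.5 with each site counted once. 28S rRNA held 0.523% and 0.497% against 1.79% and 3.01% (log2 2.23 ± 0.43, adjusted p = 0.00245), and 18S rRNA 0.288% and 0.110% against 0.473% and 0.722% (log2 1.58 ± 0.59, adjusted p = 0.0456). 5S rRNA was higher too, at 0.0158% and 0.00424% against 0.0679% and 0.0824% (log2 2.89 ± 0.67, adjusted p = 0.00616), and 5.8S rRNA and the spacers of the 45S precursor did not pass. Untreated DUS2L libraries held far more rRNA, at 19.4% and 13.6%.

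The highest 28S position was 2890 in both DUS2L libraries, with 13.97% and 9.87% of 28S counts, and 529 in both DUS1L libraries, with 3.41% and 5.53%. Among 18S positions, whose family had like counts in the enzymes, position 1661 had 3 and 1 counts in DUS1L and 75 and 202 in DUS2L (log2 5.38 ± 1.03, adjusted p = 6.94e-06), and position 448 had 5 and 2 against 60 and 103 (log2 3.85 ± 1.03, adjusted p = 0.00151). In the 45S spacers, position 6010 of the precursor had 132 and 116 counts in DUS1L against 1 and 11 (log2 -4.47 ± 0.99, adjusted p = 0.000101).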

How the data were processed

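The data were iCLIP libraries, 2 per enzyme and treatment. The deposited site files hold whole-number counts per single-nucleotide site and strand, and nothing in the values points to a normalization. Each deposited peak, 2 to 6 bases wide, has a score of at least 10 that equalled the summed site counts inside it in all peaks of the treated libraries. Per the submitters' processing notes, STAR 2.7.0f and hg38 were used. How sites were assigned, molecular identifiers and the peak caller are not named in the labels.

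Antisense counts (0.298% to 1.27% of the treated libraries) were left out, and sense counts were summed per reference, family and position. Coordinates are those of RefSeq's GRCh38.p14 annotation, in which some genes include an intron, for 398 of the 413 genes that the 252 tRNA references name. Families and references with at least 10 counts were fitted in edgeR 4.0.16 (R 4.3.3) by its quasi-likelihood F test over all 8 libraries, which share 1 estimate of spread, scaled to total sense counts. Positions with at least 10 counts, in families of at least 100 per treated library, were fitted over the 4 treated libraries with the family total as offset. P-values were adjusted by Benjamini-Hochberg over all features of a table. Ratios of very low counts have exact 95% intervals. Shares were set against each other in a two-sided exact permutation test. The fits were also run on simulated counts with a fixed spread and changes in a minority of features. In the data most families were called, so no conclusion is drawn from that run.

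The text names, per direction, 12 families, 6 references and 12 positions with the largest difference among those called and not overlapping, the families (8), references (6) and positions (12) of highest share per enzyme, and the highest position of each named family. The lists were amino acids, type II tRNA and rRNA. The members and lists were chosen with earlier results of these data known. Peaks were overlapped by at least 1 base on the same strand. Alternatives were TMM, DESeq2 1.42.0 (size factors and Wald test), count minimums of 1 and 50, families of 500 counts, only 4 or all 8 libraries, the library total as offset, the replicate number as a block, tRNA alone, both strands, each site once, sites above 500 left out, a moved window, equal weights and leaving out single libraries, for which the remaining library of a group is assumed to vary like the others. A crossed block and families of like counts were chosen after seeing the data. Replicates of treated DUS1L and DUS2L differed beyond sampling noise over families (chi-square per degree of freedom 130 and 285). Tables used Python 3.11.15 with numpy 2.4.6, scipy 1.17.1 and pandas 2.3.3, and figures matplotlib 3.10.9.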

Additional observations from a re-analysis of the deposited data

How the results depend on the processing

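For families, 29 to 44 passed under every alternative against 36, and 128 to 170 references against 156. Each site counted once gave 14 families higher and 19 lower in place of 21 and 15, keeping 26 of the 36 calls. The DESeq2 Wald test gave 89 references higher and 55 lower in place of 72 and 84. Replicate numbers did not pair the treated libraries (correlation of deviations -0.361). With the replicate block 35 families, 147 references and 734 positions passed, and with crossed pairs 36, 163 and 722. Against 986 positions, 1798 passed with the library total as offset, 586 with all 8 libraries in the fit and 682 without sites above 500 counts. In families of like counts, where fewer positions were tested, 180 of 661 passed. The fit of all families had called 97 of those 661 higher and 118 lower. Leaving out 1 library gave 290 to 834 positions: 290 without DUS1L replicate 1, 379 without DUS1L replicate 2 and 650 without DUS2L replicate 2.

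The tRNA share difference of -2.53 points was -11.5 with each site counted once, -5.47 without sites above 500 counts, and -3.42 to -1.64 with a library left out. The D-loop difference of 2.72 points was 7.72 without sites above 500 counts, 1.56 and 3.28 with the window moved by 1 towards the 5′ or 3′ end, -0.42 with equal weights, and 2.54 to 2.91 with a library left out. The causes were not tested.

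Signs turned for 3 families with each site counted once (tRNA-His-GTG -0.0067, tRNA-Ser-TGA -0.061, tRNA-Val-CAC -0.010) and for tRNA-Ser-TGA with TMM (-0.040). With the library total as offset, in place of the family total, log2 differences of named positions became those of the whole library: Ala-AGC 36 -0.72, Arg-ACG 26 -1.40 and 37 -0.88, Arg-CCG 9 -0.27, Arg-CCT 32 -0.013 and 58 -2.09, Arg-TCG 26 -1.37, 37 -1.53 and 58 -1.72, Asn-GTT 27 -0.70, Phe-GAA 37 -0.21, Tyr-GTA 27 -0.57, Asp-GTC 9 2.34, Glu-CTC 20 2.20, Gly-CCC 2 5.22 and 9 4.94, Gly-GCC 2 3.37 and 56 3.10, Gly-TCC 2 4.42, His-GTG 58 1.19, Leu-CAA 27 2.77, Leu-CAG 68 2.22, Leu-TAG 27 3.09 and Ser-AGA 26 1.86. Without sites above 500 counts they were Ala-AGC 17 3.91, Arg-CCT 58 -3.49, Asn-GTT 27 -0.32, Asp-GTC 9 6.69, Gln-CTG 9 -0.90, Gln-TTG 2 -0.71, Gly-CCC 2 5.74 and 9 2.04, Gly-GCC 2 0.75, Gly-TCC 2 2.02 and Ser-GCT 26 -1.31. With a library left out, positions that had not passed ranged from -0.60 to 0.22 (Ala-AGC 25), -0.99 to 0.28 (Ala-TGC 25), -0.21 to 0.85 (Arg-CCT 58), -0.26 to 0.29 (Asn-GTT 27), -0.30 to 0.0078 (Ser-AGA 26), -0.021 to 0.42 (Ser-CGA 26) and -0.045 to 0.89 (Val-CAC 58). Depth limits statements on families with few counts, such as proline tRNAs in DUS1L.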

Other observations

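The deposited peaks, which were called per library, gave a second view of the same counts. The treated DUS1L libraries had 335 and 256 peaks, of which 225 and 184 lay on tRNA, and the treated DUS2L libraries had 225 and 300, of which 165 and 184 lay on tRNA. The peaks held 19.2% and 21.6% of DUS1L sense counts and 29.7% and 27.4% of DUS2L sense counts. Of the DUS1L peaks, 50.4% and 66.02% overlapped a peak of the other DUS1L library by at least 1 base, and of the DUS2L peaks 74.7% and 56.0% overlapped one of the other DUS2L library. Between the enzymes the overlap was smaller in each pair of libraries, at 24.5% to 32.8% of DUS1L peaks and 28% to 36.4% of DUS2L peaks.

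Of the 168 peaks of DUS2L replicate 1 that overlapped one of replicate 2, 83 (49.4%) also overlapped a DUS1L peak and 85 did not. These 85 included 36 on rRNA, 10 on lysine, 7 on leucine, 6 on glycine, 5 on glutamate and 5 on proline tRNAs. Of the 169 such DUS1L peaks, 78 (46.2%) overlapped a DUS2L peak and 91 did not, among them 28 on rRNA, 8 on valine, 7 on arginine and 6 on serine tRNAs. How all 168 and 169 peaks were spread over these RNAs was not counted, so these numbers do not single out any tRNA or rRNA. The valine families were not called different in total counts, and the lysine families were not either.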
